A study of Mus musculus with 12 samples.

Results

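The 8 genes Myl4, Myl7, Myl2, Sln, Bmp10, Nr2f2, Irx4 and Hey2, which mark the atria or the ventricles of the heart, were followed in the RNA of 12 mouse hearts. They were chosen by name, with earlier results of these data known, and all 8 were found once among the 25171 loci of the count table. Myl7, Myl4, Sln, Bmp10 and Nr2f2 mark the atria, and Myl2, Irx4 and Hey2 the ventricles. All mice carried NOTCH2NLC with 98 GGC repeats behind a loxP-flanked stop at the Rosa26 site, and each of the 4 groups held 3 hearts labelled as biological replicates. EIIa-tg mice also carried EIIa-Cre, which acts in all tissues, EIIa-ctl mice were littermates without this Cre, and both were 30 days old. Myh6-tg and Myh6-ctl mice were 90 days old, and the labels give both Myh6-creERT2, a tamoxifen-inducible Cre made in cardiomyocytes under the Myh6 promoter. From day 60 they received 3 injections, of tamoxifen at 75 mg per kg in Myh6-tg and of corn oil alone in Myh6-ctl. Reads of Esr1, whose ligand-binding part belongs to this Cre, were high in the hearts labelled Myh6-ctl only, which goes against the label of Myh6-tg. The presence of Cre in the EIIa model, and tamoxifen and this difference in Esr1 reads in the Myh6 model, cannot be told apart from the expression of the repeat. The question was whether the balance of atrial and ventricular transcripts shifted between groups or between single hearts.

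Atrial and ventricular cardiomyocytes build the same sarcomere from different isoforms and hold this identity through transcription factors set up in the embryo. Myl7 and Myl2 are the atrial and ventricular regulatory light chains of myosin, and Myl4 and Myl3 the atrial and ventricular essential light chains. Myl7 and Myl4 are also made in the fetal ventricle and decline there after birth, and MYL4 is known to return in diseased human ventricles. Sln (sarcolipin) inhibits the calcium pump of the atrial sarcoplasmic reticulum, and Bmp10 is a growth factor of the trabeculated embryonic ventricle that is confined to the atria in the adult. Nr2f2 (COUP-TFII) sets atrial identity and is also a factor of venous endothelium. Irx4 is a homeobox factor of the ventricle, and Hey2 is a Notch-induced repressor of the compact ventricular wall that is also made in vessels.

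In the GENCODE M21 annotation of GRCm38 all 8 are protein-coding genes. Myl7 lies at chr11:5896637-5898782 on the minus strand, Myl4 at chr11:104550663-104595753 on the plus strand, Sln at chr9:53850164-53854560 on the plus strand, Bmp10 at chr6:87428994-87437677 on the plus strand and Nr2f2 at chr7:70351944-70366735 on the minus strand. Myl2 lies at chr5:122100951-122113472 on the plus strand, Irx4 at chr13:73260479-73269608 on the plus strand and Hey2 at chr10:30832359-30842801 on the minus strand. The bases just before the annotated start of Myl7, Myl4 and Irx4 are given because Myl4 and Irx4 passed in a transgenic model and Myl7 had its highest counts in Myh6-tg hearts, and because their starts in RefSeq (GRCm38.p6) lie at or within 18 bases of the GENCODE start. The sequences read 5' to 3' on the strand of the gene and end at the base before the GENCODE start. Capitals mark the motifs found.
Myl7, chr11:5898783-5899032, minus strand: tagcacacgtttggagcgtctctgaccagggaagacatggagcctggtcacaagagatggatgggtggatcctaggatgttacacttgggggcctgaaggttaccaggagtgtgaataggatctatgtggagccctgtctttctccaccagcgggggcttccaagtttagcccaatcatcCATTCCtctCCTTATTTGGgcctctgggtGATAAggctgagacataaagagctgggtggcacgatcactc
Myl4, chr11:104550413-104550662, plus strand: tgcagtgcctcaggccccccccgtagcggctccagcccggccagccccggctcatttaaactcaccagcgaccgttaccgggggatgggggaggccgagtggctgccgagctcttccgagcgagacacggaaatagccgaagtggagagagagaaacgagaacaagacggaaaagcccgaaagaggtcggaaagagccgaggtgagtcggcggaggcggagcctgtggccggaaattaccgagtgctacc
Irx4, chr13:73260247-73260478, plus strand: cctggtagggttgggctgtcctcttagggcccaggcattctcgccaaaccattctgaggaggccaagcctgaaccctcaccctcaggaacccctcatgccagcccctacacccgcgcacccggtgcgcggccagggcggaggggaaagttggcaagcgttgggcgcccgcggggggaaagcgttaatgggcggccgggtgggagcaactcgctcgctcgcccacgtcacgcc
Both strands were searched for the CArG box bound by serum response factor, the MEF2 box, the core CATTCC bound by TEAD factors and the core GATAA bound by the family of Gata4. The last motif searched was TATAAA, which can lie inside a MEF2 box. The Myl7 window held 1 CArG box, 1 CATTCC and 1 GATAA, none overlapping another, and the Myl4 and Irx4 windows held none of the 5. Among the 32841 windows of 250 bases before a RefSeq start, 1.47% held a CArG box, 0.509% a MEF2 box, 12.6% CATTCC, 22.6% GATAA and 12.4% TATAAA. The same search found 2 GATAA in the Bmp10 window, 1 CATTCC in the Hey2 window and no motif in the Nr2f2 window. The RefSeq starts of Myl2 lie at -7762 and -8227 bases relative to its GENCODE start, so no window is given for it, and Sln had no entry.

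Between 38343106 and 50969834 reads were counted per heart. Counts are compared as CPM, reads scaled to a common library total, after TMM scaling (a correction for the composition of each library), and genes are compared with each other only as FPKM, which also divides by transcript length. The mitochondrial (mt-) genes took 34.2 to 36.7% of the counts in EIIa-ctl, 28.5 to 32.3% in EIIa-tg, 31.8 to 38.3% in Myh6-ctl and 15.5 to 18.6% in Myh6-tg hearts. Reads of Y-linked genes were found in replicate 1 of each group (4224 to 7307 counts over 4 genes) and were 0 to 2 in all others, so each group held 1 heart with and 2 hearts without a Y signal. Esr1 had 53433 to 103037 counts in Myh6-ctl, 53 to 116 in Myh6-tg and 15 to 54 in the EIIa groups. The part of this in the results was not tested, and groups are named as labelled. The labels give brain for the extracted RNA and heart as the tissue; of 5 brain markers Syt1, Gad1 and Gfap had at most 6, 10 and 35 counts in any heart, Slc17a7 had 325 to 1737 and Mbp 74 to 358, while 7 cardiomyocyte genes together had 522831 to 1455535. Small counts were few in the table, with 98450 entries at 0, 1002 at 1 and 4007 at 2, and 42.4 to 56.6% of the genes whose highest count in a group was 10 to 19 had another heart at 0. A gene is therefore only said to be listed at 0.

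In Myh6-tg hearts the atrial essential light chain Myl4 rose 8.64-fold, while the ventricular Myl2 fell 4.21-fold and Irx4 fell 3.30-fold. In EIIa-tg hearts Irx4 fell 1.69-fold and no other member passed the test. Nr2f2 and Hey2 did not pass in either model, with log2 fold changes between -0.07 and 0.15. The atrial genes Myl7 and Sln had their highest counts in Myh6-tg replicates 2 and 3, and Bmp10 was listed at 0 in 11 of 12 hearts. Across the table, 2527 of 14908 genes tested (17.0%) passed an adjusted p of 0.05 in EIIa-tg, 8.65% as higher and 8.30% as lower, and 2805 of 15298 (18.3%) passed in Myh6-tg, 8.96% as higher and 9.38% as lower. In EIIa-tg 1 of the 5 members tested passed, as lower. In Myh6-tg 3 of the 6 tested passed, 1 as higher and 2 as lower.

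**Figure D1:**
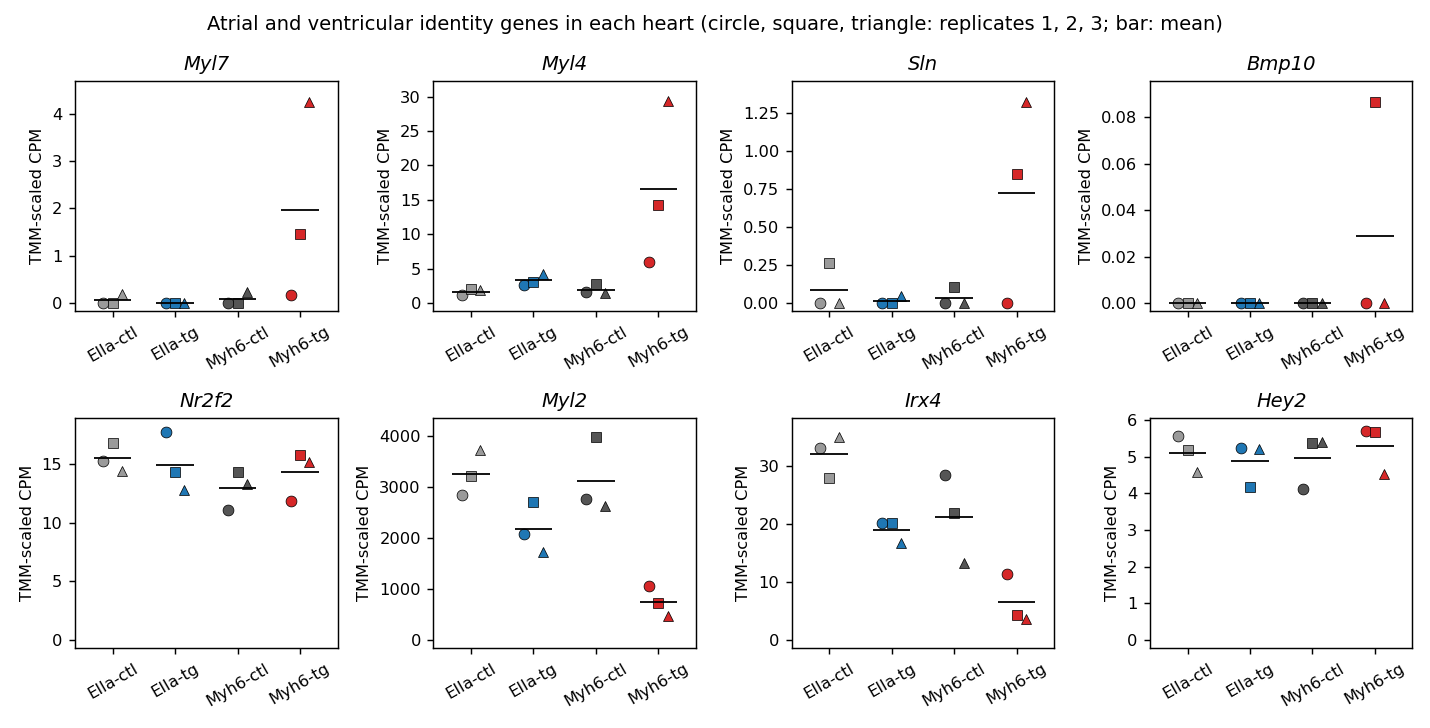
TMM-scaled CPM (linear axes from 0, a different range in each panel) of the 8 genes in every heart, with 1 point a heart, the symbol giving the replicate and the bar the mean of 3. In Myh6-tg replicate 3 (red triangle) Myl4 reached 29.3 and Myl7 4.26 CPM while Myl2 was lowest at 464 CPM, and Nr2f2 and Hey2 overlapped between all groups except that Nr2f2 was lower in every Myh6-ctl than in every EIIa-ctl heart.

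Myl2 was the most abundant of the 8 in every heart. Its level was 2834, 3209.6 and 3732 CPM in EIIa-ctl, against 2078, 2709 and 1722 CPM in EIIa-tg. It was 2762, 3974 and 2627 CPM in Myh6-ctl and 1051, 711 and 464 CPM in Myh6-tg. All 3 transgenic hearts lay under all 3 controls in both models. The share of all genes whose groups separate in this way was not counted. The log2 fold change was -2.07 ± 0.37 (SE) in Myh6-tg, with an adjusted p of 0.0112 by the quasi-likelihood test of edgeR, and -0.59 ± 0.20 in EIIa-tg, with an adjusted p of 0.0792. Without Myh6-tg replicate 2 the former had an adjusted p of 0.0521 at a log2 fold change of -2.04, and without EIIa-tg replicate 2 the latter had 0.0123 at -0.79. In these bulk samples fewer cardiomyocytes of a chamber and less RNA per cardiomyocyte cannot be told apart.

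Myl7, the atrial partner of Myl2, was listed at 0 in 2 EIIa-ctl, all 3 EIIa-tg and 2 Myh6-ctl hearts. The remaining controls had 7 counts (EIIa-ctl replicate 3) and 12 counts (Myh6-ctl replicate 3), and the Myh6-tg hearts had 8, 67 and 225. The 2 hearts with 67 and 225 counts stood above all other hearts, and the one with 8 counts lay below Myh6-ctl replicate 3. On the CPM scale Myh6-tg reached 0.171, 1.45 and 4.26. The log2 fold change in Myh6-tg was 4.55 ± 1.54 with an adjusted p of 0.0776. With the replicate number as a block, an assumed pairing taken from the counts, it was 5.13 ± 0.97 with an adjusted p of 0.0153. It was 5.07 with an adjusted p of 0.0243 without Myh6-tg replicate 1, the heart with 8 counts. Without Myh6-tg replicate 3 it was 3.31 with an adjusted p of 0.258. Without Myh6-ctl replicate 3 the remaining controls were all at 0, and the fitted value of 9.49 (adjusted p = 0.0687) is no bound. The filter on low counts left Myl7 out of the EIIa comparison and kept it in the Myh6 comparison, where Myh6-tg replicates 2 and 3 held most of its counts.

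Myl4 was measured in every heart. EIIa-ctl hearts had 1.12, 2.03 and 1.82 CPM (49, 78 and 67 counts) and EIIa-tg hearts 2.69, 3.10 and 4.19 CPM. Myh6-ctl hearts had 1.61, 2.69 and 1.46 CPM, and Myh6-tg hearts 5.998, 14.3 and 29.3 CPM (281, 657 and 1550 counts). Every transgenic heart was above its controls, though the share of all genes that separate so was not counted. Myh6-tg replicate 3 stood well above the other 2 of its group. The log2 fold change was 3.11 ± 0.58 in Myh6-tg (adjusted p = 0.0131, edgeR) and 1.00 ± 0.31 in EIIa-tg (adjusted p = 0.0588). The call in Myh6-tg was lost without Myh6-ctl replicate 1 (log2 fold change 3.00, adjusted p = 0.0643) or replicate 3 (2.94, adjusted p = 0.0530). Without Myh6-tg replicate 3 the log2 fold change was 2.40 (adjusted p = 0.0339).

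Set against their ventricular partners in the same heart, the atrial light chains were minor transcripts in every heart. As FPKM, Myl7 was 0 to 0.00509% of Myl2 in EIIa-ctl, 0 in all EIIa-tg and 0 to 0.00934% in Myh6-ctl hearts, and 0.0180, 0.235 and 1.12% in Myh6-tg replicates 1, 2 and 3. Myl4 was 0.0239 to 0.0475% of Myl3 in EIIa-ctl, 0.0903 to 0.233% in EIIa-tg, 0.0399 to 0.0605% in Myh6-ctl and 0.511, 1.45 and 4.51% in Myh6-tg. The shares of Myl4 did not overlap between transgenic and control hearts in either model, and how often other ratios separate so was not counted. The denominators fell too in Myh6-tg, as Myl3, the ventricular essential light chain, did by 1.97 on the log2 scale (SE 0.33, adjusted p = 0.00945). The ratio of Myl2 to Myl3 stayed between 0.806 and 1.30 in all 12 hearts. Against troponin T (Tnnt2), which all cardiomyocytes make, Myl2 was 1.13 to 1.39 in controls, 0.801, 1.03 and 0.657 in EIIa-tg and 0.165, 0.334 and 0.245 in Myh6-tg. Tnnt2 itself ranged from 155878 to 453150 counts among the Myh6-tg hearts and did not pass the test (log2 fold change 0.44 ± 0.48, adjusted p = 0.559). Against Myh6, another cardiomyocyte gene, Myl2 was 1.93 to 2.64 in EIIa-ctl and 2.69 to 6.88 in EIIa-tg. It was 2.34 to 4.38 in Myh6-ctl and 2.87 to 6.26 in Myh6-tg, where Myh6 itself fell. The fall of Myl2 against Tnnt2 was thus not seen against Myh6.

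**Figure D2:**
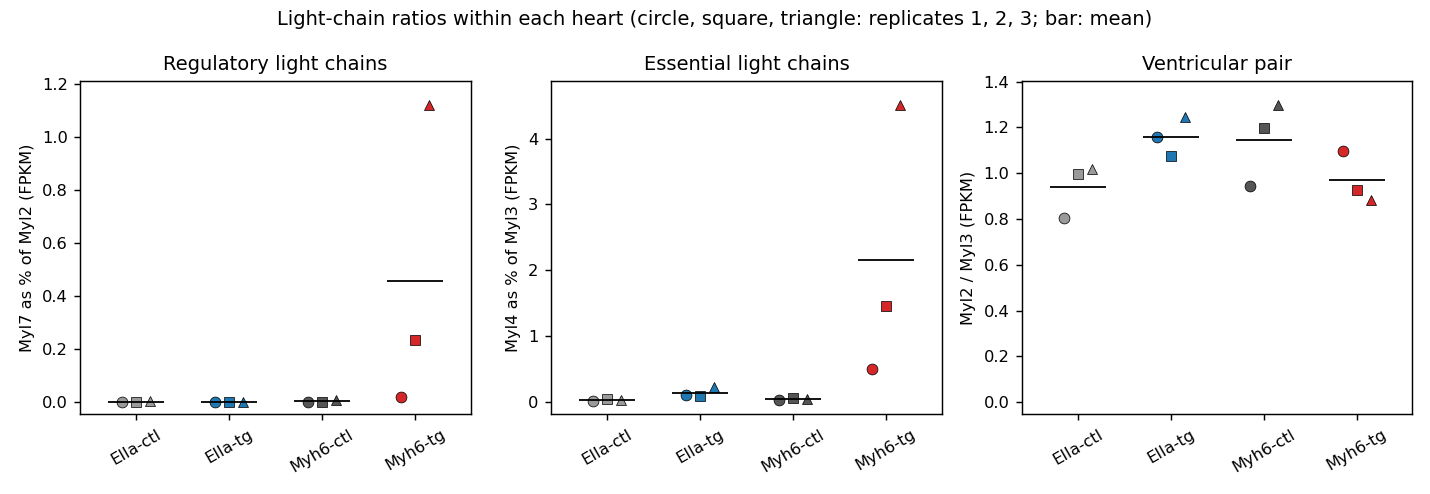
FPKM ratios within each heart (linear axes from 0): Myl7 as a percentage of Myl2, Myl4 as a percentage of Myl3, and Myl2 over Myl3, with 1 point a heart and a bar for the mean of 3. Myh6-tg replicate 3 reached 1.12% and 4.51% for the atrial light chains, while the ratio of the ventricular pair lay between 0.806 and 1.30 in all hearts.

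Sarcolipin reads were few. Sln was listed at 0 in 7 of 12 hearts, had 10 counts in EIIa-ctl replicate 2, 2 in EIIa-tg replicate 3 and 4 in Myh6-ctl replicate 2, and had 39 and 70 in Myh6-tg replicates 2 and 3. The remaining Myh6-tg heart, replicate 1, was at 0, so the groups overlapped. The filter left Sln out of both transgenic comparisons. Bmp10 had 4 counts in Myh6-tg replicate 2 and was listed at 0 elsewhere, and was not tested.

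Nr2f2, the atrial transcription factor, passed in neither model. Its level was 15.2, 16.8 and 14.4 CPM in the EIIa-ctl hearts, 17.7, 14.3 and 12.8 CPM in EIIa-tg, 11.1, 14.4 and 13.3 CPM in Myh6-ctl and 11.9, 15.8 and 15.2 CPM in Myh6-tg. The ranges of transgenic and control hearts overlapped in both models. The log2 fold change was -0.06 ± 0.15 in EIIa-tg (adjusted p = 0.818) and 0.15 ± 0.20 in Myh6-tg (adjusted p = 0.655). The 6 genes of venous and lymphatic endothelium, cells that also make Nr2f2, summed to 239 to 263 CPM in EIIa-ctl, 229 to 247 in EIIa-tg, 210.4 to 417 in Myh6-ctl and 246 to 339 in Myh6-tg, with none of 6 passing in Myh6-tg. In EIIa-tg 1 of the 6 rose, Lyve1 (0.46, adjusted p = 0.0433), and 1 fell, Prox1 (-0.76, adjusted p = 0.0275), both named after their values were seen.

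Irx4 was lower in every transgenic heart than in any control of its model, though the share of all genes that separate so was not counted. EIIa-ctl hearts had 33.2, 27.9 and 35.0 CPM and EIIa-tg hearts 20.1, 20.1 and 16.6 CPM. Myh6-ctl hearts had 28.5, 21.9 and 13.2 CPM, and Myh6-tg hearts 11.4, 4.30 and 3.596 CPM. The Myh6-ctl hearts spread widely, and the lowest of them was close to Myh6-tg replicate 1. The log2 fold change was -0.76 ± 0.13 in EIIa-tg (adjusted p = 0.0168, edgeR) and -1.72 ± 0.48 in Myh6-tg (adjusted p = 0.0444). Both calls depended on single hearts. The one in EIIa-tg had an adjusted p of 0.0775 without EIIa-ctl replicate 1, 0.0797 without EIIa-ctl replicate 3, 0.0566 without EIIa-tg replicate 1 and 0.0594 without EIIa-tg replicate 3, with log2 fold changes of -0.74, -0.69, -0.80 and -0.67. The one in Myh6-tg had 0.144, 0.103 and 0.0564 without Myh6-ctl replicates 1, 2 and 3, and 0.133 and 0.120 without Myh6-tg replicates 2 and 3, with log2 fold changes between -1.99 and -1.43. Without Myh6-tg replicate 1 it was -2.43 (adjusted p = 0.00376).

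Hey2, the other ventricular factor, passed in neither model. It had 5.56, 5.18 and 4.59 CPM in EIIa-ctl, 5.25, 4.17 and 5.21 in EIIa-tg, 4.12, 5.38 and 5.41 in Myh6-ctl and 5.70, 5.68 and 4.54 in Myh6-tg hearts. The groups overlapped, with log2 fold changes of -0.07 ± 0.18 in EIIa-tg (adjusted p = 0.807) and 0.10 ± 0.25 in Myh6-tg (adjusted p = 0.827).

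The threshold of the study was an adjusted p under 0.01 and a log2 change of 1 or more either way, applied there to DESeq2 fits. With edgeR none of the 8 reached it in the Myh6 comparison, where 608 of 15298 genes (3.97%) did. In the EIIa comparison 0 of 14908 genes reached it with edgeR. An unadjusted p under 0.05 in the edgeR test was found for 4 of the 6 members tested in Myh6-tg and 3 of the 5 in EIIa-tg. The share of all genes at that level was not counted in any comparison. No unadjusted p given here is therefore read as a result about the genes named. Myl4, Myl2 and Irx4 reached the threshold of the study with DESeq2, where 2135 of 20011 genes reached it. Myl2 and Irx4 did with the replicate block, where 969 of 15298 genes reached it. Over all genes, the count of 2527 passing in EIIa-tg fell to 0 when replicate 1 of either EIIa group was left out, to 1 without EIIa-ctl replicate 3 and to 133 without EIIa-tg replicate 3, and was 4079 without EIIa-tg replicate 2. That of 2805 in Myh6-tg fell to 798 without Myh6-ctl replicate 1, 1755 and 1637 without Myh6-ctl replicates 2 and 3, and 982 and 969 without Myh6-tg replicates 2 and 3, and was 4269 without Myh6-tg replicate 1.

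**Figure D3:**
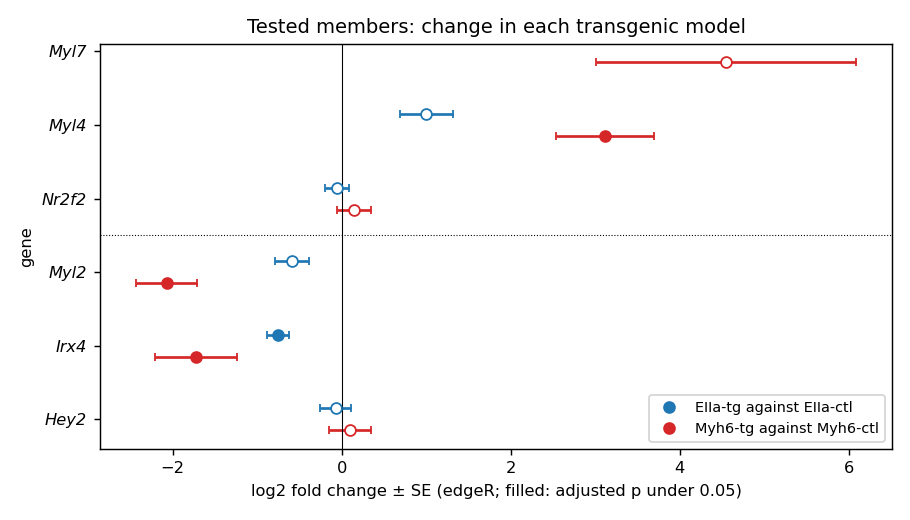
Log2 fold change with its SE (edgeR, 3 against 3 hearts) of the members tested, atrial genes above and ventricular genes below the dotted line, in EIIa-tg (blue) and Myh6-tg (red); filled points have an adjusted p under 0.05. Myl4 lies at 1.00 and 3.11, Myl2 at -0.59 and -2.07 and Irx4 at -0.76 and -1.72, while Nr2f2 and Hey2 lie between -0.07 and 0.15.

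The change in Myh6-tg minus that in EIIa-tg was tested in all 12 hearts, where 624 of 15929 genes (3.92%) passed. It was -1.49 ± 0.42 on the log2 scale for Myl2 (adjusted p = 0.0755), 2.10 ± 0.68 for Myl4 (adjusted p = 0.112) and -0.96 ± 0.54 for Irx4 (adjusted p = 0.356). None of the 6 members tested passed with edgeR. Myl2, Myl4 and Sln had an unadjusted p under 0.05, Sln on the few counts given above and with no fold given. Myl4 and Myl2 passed with DESeq2, where 1395 of 20747 genes passed. Without Myh6-tg replicate 1 Myl4, Myl2 and Irx4 passed, with 2.49 for Myl4 (adjusted p = 0.0109), -1.83 for Myl2 (adjusted p = 0.0114) and -1.68 for Irx4 (adjusted p = 0.0137). Without Myh6-tg replicate 3 the values were 1.39 (adjusted p = 0.246), -1.25 (adjusted p = 0.13) and -0.68 (adjusted p = 0.535). The models differ in age, Cre and injection, which cannot be told apart from the difference.

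The control groups, which also differ in Cre and oil injection, gave the levels of these genes at both ages. Of 14990 genes 5 passed between Myh6-ctl and EIIa-ctl hearts (0.0334%). None of the 5 members tested passed with edgeR or DESeq2, and 1, Irx4, had an unadjusted p under 0.05, at a log2 fold change of -0.59 ± 0.26 (adjusted p = 0.432). In order of FPKM, Myl2 led in both control groups with 3485 to 4875, before Irx4 with 9.93 to 11.8 in EIIa-ctl and 5.20 to 9.40 in Myh6-ctl. In EIIa-ctl Irx4 was followed by Nr2f2 with 3.31 to 3.90, and then by Hey2 with 1.57 to 1.87 and Myl4 with 1.054 to 2.06, whose ranges overlapped. In Myh6-ctl Nr2f2 with 2.44 to 3.56 was likewise above Myl4 with 1.47 to 2.41 and Hey2 with 1.38 to 2.15, which overlapped. In EIIa-tg Irx4 with 6.91 to 7.62 stood above Myl4 with 2.92 to 5.23 and Nr2f2 with 3.30 to 4.19, which overlapped. In Myh6-tg the order below Myl2 (823 to 1511 FPKM) was led by Myl4 with 7.05 to 42.0, above Nr2f2 with 3.01 to 4.71, while Irx4 with 1.77 to 4.71 overlapped both Nr2f2 and Hey2 (2.28 to 2.63). Myl7 ranged from 0.272 to 9.24 FPKM there and overlapped Myl4, Nr2f2, Irx4 and Hey2.

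Other genes known for higher expression in the atria moved in both directions in Myh6-tg hearts. Of 14, 13 were tested, 1 rose and 3 fell, and their median log2 fold change was -0.04, against 0.03 over all genes. Dkk3, a secreted modulator of Wnt signalling, rose from 5.16, 14.3 and 11.04 CPM in Myh6-ctl to 55.8, 104 and 128 CPM (log2 fold change 3.24 ± 0.45, adjusted p = 0.00554). Kcnj3, which encodes an atrial acetylcholine-gated potassium channel subunit, fell from 38.4, 41.2 and 37.3 CPM to 7.24, 1.91 and 2.61 CPM (-3.32 ± 0.48, adjusted p = 0.00607). Its partner subunit Kcnj5 (-1.21, adjusted p = 0.0368) and the potassium channel gene Kcna5 (-1.03, adjusted p = 0.0417) also fell. In Myh6-ctl hearts, where Myl7 had 0 to 12 counts, Kcnj5 was 31.4 to 41.3 CPM and Kcna5 32.7 to 34.9 CPM. The chamber that the RNA of these channel genes came from was not tested. For Dkk3, Kcnj3, Kcnj5 and Kcna5, named because they passed on the same hearts, no heart of one group overlapped the other. The share of all genes without overlap was not counted. Nppa, the atrial natriuretic peptide, was 151, 1813 and 758 CPM in Myh6-ctl and 6517, 4171 and 4829 CPM in Myh6-tg, an increase of 2.51 ± 0.77 on the log2 scale with an adjusted p of 0.0581. In EIIa-tg 3 of 12 tested rose and 0 fell with edgeR. Without passing, Kcnj3 and Kcnk3 were lower there and Stard10 higher with an unadjusted p under 0.05 in the edgeR test. DESeq2, with which 3536 of 19471 genes passed in all, called 4 genes of the list higher and 1 lower. The median was -0.11, against 0.02 over all genes. Those that passed as higher with edgeR were Nppa (1.46, adjusted p = 0.0326), Dkk3 (1.58, adjusted p = 0.0405) and Pam, the peptide-amidating enzyme of atrial granules (0.45, adjusted p = 0.0304). Mybphl, a myosin-binding protein of the atria, had 0 to 41 counts in all hearts.

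The other ventricular genes fell or did not pass in Myh6-tg hearts. Of 8, 7 were tested and 4 fell, and the median log2 fold change was -1.06, against 0.03 over all genes. Kcnj2, the inward rectifier channel that holds the ventricular resting potential, fell from 27.8, 30.1 and 21.3 CPM in Myh6-ctl to 6.34, 5.36 and 3.22 CPM (-2.41 ± 0.29, adjusted p = 0.0037). Myl3 is given above. Pln (phospholamban), the ventricular counterpart of sarcolipin, fell by 2.52 on the log2 scale (adjusted p = 0.0341), from 6261, 5734 and 4457 CPM to 2019, 475 and 384 CPM. Prdm16, a factor of the compact ventricular wall, fell by 1.06 (adjusted p = 0.0465). Irx3 (0.05, adjusted p = 0.934) and Irx5 (0.42, adjusted p = 0.543), relatives of Irx4, did not pass. In EIIa-tg 1 rose and 1 fell of 7 tested, with a median of -0.41. Myl3 fell (-0.84, adjusted p = 0.0426), and Myh7, the slow ventricular myosin heavy chain, rose (1.87, adjusted p = 0.0423), from 433, 522 and 497 CPM to 3451, 666 and 1202 CPM. Hand1, a factor of the embryonic left ventricle, had 4 counts in 1 heart and was listed at 0 in the others.

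These calls differed in how far they rested on single hearts. Dkk3, Kcnj3, Myl3 and Kcnj2 passed in Myh6-tg whichever heart was left out. Kcnj5, Prdm16 and Pln were lost there without any one of Myh6-ctl replicates 1, 2 and 3 and Myh6-tg replicates 2 and 3, and Kcna5 without any one of Myh6-ctl replicates 1, 2 and 3 and Myh6-tg replicate 3, with adjusted p of 0.0621 to 0.15. Without Myh6-tg replicate 1 the change of Pln was -3.68 and that of Kcnj3 -4.11. The 5 calls in EIIa-tg were lost without any one of EIIa-ctl replicates 1 and 3 and EIIa-tg replicates 1 and 3, and those of Pam, Myl3 and Myh7 also without EIIa-ctl replicate 2, with adjusted p of 0.0599 to 0.141. The EIIa-tg change of Myh7 was 0.94 on the log2 scale without EIIa-tg replicate 1, and that of Dkk3 1.00 without EIIa-tg replicate 3. Between the models, the change of Kcnj3 was lower in Myh6-tg by -2.81 ± 0.55 (adjusted p = 0.0158), or -3.61 without Myh6-tg replicate 1, and that of Kcnj2 by -1.93 ± 0.41 (adjusted p = 0.0219). No gene of either list passed between the control groups with edgeR. DESeq2, with which 428 of 19222 genes passed there, called 1 atrial gene lower and 1 ventricular gene higher.

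**Figure D4:**
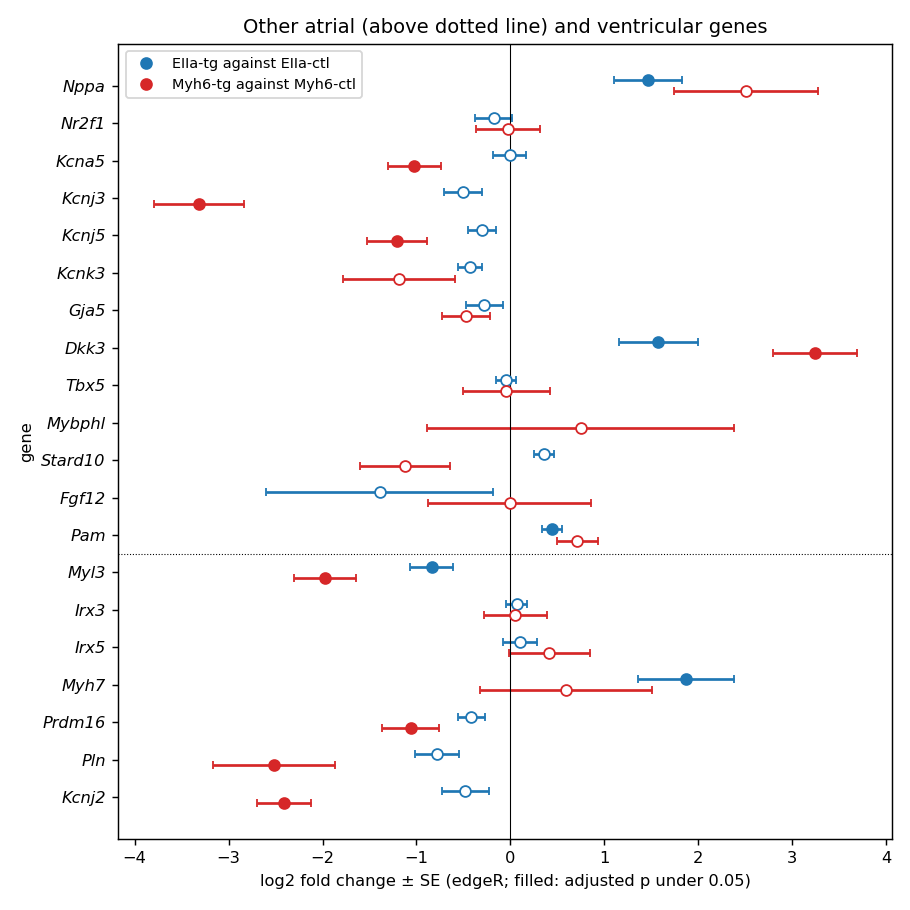
Log2 fold change with its SE (edgeR, 3 against 3 hearts) of the other atrial genes (above the dotted line) and ventricular genes (below it) that were tested, in EIIa-tg (blue) and Myh6-tg (red); filled points have an adjusted p under 0.05. Kcnj3 at -3.32 and Dkk3 at 3.24 are the atrial genes farthest apart in Myh6-tg, and Myl3, Prdm16, Pln and Kcnj2 fell there.

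Genes of all cardiomyocytes and of tissue near the atria were set beside these results. Of 7 cardiomyocyte genes 2 fell in Myh6-tg, Myh6 (-2.60 ± 0.57, adjusted p = 0.0208), whose promoter drives the Cre, and Tnni3 (-2.39 ± 0.44, adjusted p = 0.0124), and the other 5 did not pass, with a median of -0.28 over the 7. Their summed level was 24205 to 32202 CPM in Myh6-ctl and 9894 to 30257 in Myh6-tg. In EIIa-tg 1 of the 7, Ryr2, fell (-1.051, adjusted p = 0.0322), and the median over the 7 was -0.74, against 0.02 over all genes. Myh6, Tnni3, Tnnc1 and Actc1 were also lower there with an unadjusted p under 0.05 in the edgeR test, without passing. The summed level of the 7 was 30622 to 36998 CPM in EIIa-ctl and 14560 to 27485 in EIIa-tg. The 4 lung genes had at most 4 counts together in any heart and the 4 thymus genes at most 52. Of 7 genes of the sinus node and conduction system, Isl1 was at 0 in all hearts and Vsnl1 had at most 7 counts. The list summed to 22.1 to 33.7 CPM in Myh6-ctl and 11.9 to 27.7 in Myh6-tg, where Hcn4 and Tbx3 fell. The 5 smooth muscle genes of the great vessels summed to 288 to 362 CPM in Myh6-ctl and 439 to 1145 in Myh6-tg, with Cnn1 and Eln higher and Myh11 lower among the 5. In EIIa-ctl and EIIa-tg they summed to 269 to 443 and 254 to 447, and Cnn1 rose by 3.81 on the log2 scale (adjusted p = 0.0147). The 4 genes of epicardium and mesothelium summed to 9.97 to 29.5 CPM in Myh6-ctl and 14.3 to 27.8 in Myh6-tg with none passing. The 5 fibroblast genes summed to 939 to 1133 CPM in EIIa-ctl, 1447 to 2182 in EIIa-tg, 1266 to 1511 in Myh6-ctl and 1399.7 to 3182 in Myh6-tg, with 2 higher in each model and none lower. Of 5 endothelial genes 3 fell in EIIa-tg and none passed in Myh6-tg. Of 5 skeletal muscle genes 1, Ckm, which the heart also makes, fell in Myh6-tg, and of 2 brown fat genes none passed. Of 5 brain genes 1, Slc17a7, rose in EIIa-tg and fell in Myh6-tg. Genes named in this paragraph beyond the cardiomyocyte list were picked after their values were seen, and the part of these cells, of the mt- share and of dissection in the chamber genes was not tested.

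The Myh6-tg hearts differed more among themselves than the other groups for the atrial light chains. Replicate 3 had the highest Myl4, Myl7 and Sln and the lowest Myl2 and Irx4, and replicate 1, the heart with Y-linked reads, had the lowest of the former and the highest of the latter. The same replicate 1 had 3927 CPM of Myh7 and 26.3 CPM of Tbx5, against 365 to 420 and 7.53 to 8.63 CPM in replicates 2 and 3. Within the EIIa-tg group replicate 3 had the highest Myl4 and the lowest Myl2 and Irx4.

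Among 13122 genes with a mean of at least 1 CPM, the levels closest to those of Myl2 over the 12 hearts (Pearson's r of log2 CPM plus 1) were Dnajc15 (0.991), Vegfb (0.987) and Ndufab1 (0.986). Those closest to Irx4 were Ldhb (0.9896), Ppp2r5a (0.9895) and the gap junction gene Gja1 (0.9894), and those closest to Myl4 were Usp39 (0.9748), Aebp2 (0.9748) and Mfge8 (0.974). After each heart's group mean was removed, r was 0.925 to 0.934 for Myl2, 0.961 to 0.971 for Irx4 and 0.867 to 0.877 for Myl4. The closest to Nr2f2 were Cbx3 (0.832), Fzd8 (0.819) and an unannotated locus (0.786), and Hoxb3 (0.807) and Maco1 (0.731) were among the closest to Hey2. The hearts of a group share treatment and age, and all genes of a heart share its library, so these values describe likeness only. Myl7, Sln and Bmp10 had counts in fewer than 6 hearts and were left out.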

How the data were processed

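Total RNA of 12 hearts was sequenced with the NEBNext Ultra kit. Per the labels and methods, reads were mapped to GRCm38 with HISAT2 (2.0.4 in the submitters' processing notes, which also list StringTie 2.2.1, DESeq2 and GRCm39), and the counting program, annotation release and use of strand are not given in the sources used here. The authors deposited whole-read counts and FPKM for 25171 loci, 3135 of them unannotated. Depth was 38343106 to 50969834 counts per heart. The SE given with a log2 fold change comes from the edgeR fit and includes the spread between hearts. The transgene was not analysed here, and a few results are not reported here.

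Samples were grouped by title, since 2 EIIa-tg genotype labels read differently. From the counts, log2 fold changes were fitted with the quasi-likelihood test of edgeR 4.0.16 (R 4.3.3, TMM factors, filterByExpr), with Benjamini-Hochberg adjustment over all genes tested, for each transgenic group against its controls, for the difference between models and for the controls. A gene passed at an adjusted p under 0.05. The hearts are labelled as biological replicates. The p-values set a change against the spread between the 3 hearts of each group, estimated partly from all genes. The fit was tested on simulated data with 97 to 100 genes changed at each size. True log2 changes of 1 were called for 63.9% in EIIa-tg, 11.3% in Myh6-tg, 6.06% for the difference and 32.7% for the controls. For changes of 2 the shares were 81.6, 63.3, 53 and 80.8%. A gene that did not pass may therefore still have changed. Ratios within a heart used FPKM.

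The 8 members and the lists were chosen with earlier results of these data known. Named genes were the 8, other chamber genes that passed (at most 8 per comparison) and the 3 genes closest to each member. Alternatives were RLE factors, DESeq2 1.42.0, other filters, all 12 hearts in one fit, a replicate block, mt- genes left out, limma 3.58.1 on log2(FPKM + 1) and log2(FPKM + 0.1), and each heart left out. Myh6-tg and Myh6-ctl hearts of the same number deviated together from their group means (r = 0.264, 0.22 and 0.248). Those of different number had r of -0.246 to -0.00285, which is no separate evidence, since deviations from a group mean cancel out over its hearts. The number was taken to pair them on this evidence from the same counts, not from a label. Replicate 1 held the Y-linked reads in every group, so the block also carries this difference. In the EIIa model hearts of different number, EIIa-ctl replicate 2 and EIIa-tg replicate 3, also reached r = 0.258. Blocked values rest on this assumed pairing and stand beside the results they change. Figures were drawn with matplotlib 3.10.9.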

Additional observations from a re-analysis of the deposited data

Results flagged for a closer look

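Of the 6 members, 14 other atrial and 7 other ventricular genes tested, 2 changed by different amounts in the models, as tested with the interaction contrast of edgeR over all 12 hearts, where 624 of 15929 genes (3.92%) passed. The log2 change of Kcnj3 in Myh6-tg minus that in EIIa-tg was -2.81 ± 0.55 (SE, adjusted p = 0.0158), from changes of -3.32 and -0.50, and it passed whichever of the 12 hearts was left out, with -3.61 without Myh6-tg replicate 1. That of Kcnj2 was -1.93 ± 0.41 (adjusted p = 0.0219), from changes of -2.41 and -0.48, and it was lost without EIIa-ctl replicate 1 (adjusted p = 0.0666) or EIIa-ctl replicate 2 (adjusted p = 0.0621). Age, Cre and injection differ between the models and cannot be told apart from this difference.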

How the results depend on the processing

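Of 357 alternative values for the members, 314 kept their direction and their side of the threshold, 14 moved past it, 14 no longer passed and 15 changed sign, and of 235 for the other chamber genes, added after seeing the data, 172 kept both and 63 no longer passed. The cause was not tested for any of them. Genes passing in EIIa-tg (2527) numbered 3536 with DESeq2 and 227 with all 12 hearts in one fit. They numbered 2871 and 3003 with limma at pseudocounts of 1 and 0.1, and 0 to 4079 with 1 heart left out. Members passing (1) numbered 3 with DESeq2, 0 with all 12 hearts, 2 with limma at either pseudocount and 0 to 2 with 1 heart left out. With the replicate block 1 gene and 0 members passed in EIIa-tg, where same-numbered hearts did not all deviate together (r = 0.136, -0.138 and -0.114). The block left Irx4 there at -0.76 (adjusted p = 0.0643), gave 27 genes between the control groups and changed, among members in Myh6-tg, the call of Myl7 and took Myl2 and Irx4 past the threshold of the study. Genes passing in Myh6-tg (2805) numbered 5049 with all 12 hearts, 4273 with limma at a pseudocount of 0.1 and 798 to 4269 with 1 heart left out, with 1 to 5 members (3). The count at the threshold of the study (608) was 2135 with DESeq2, 1857 with all 12 hearts, 1074 and 1318 with limma at pseudocounts of 1 and 0.1, and 26 to 1690 with 1 heart left out. For the difference between models (624) DESeq2 gave 1395 genes and 2 members, limma at a pseudocount of 1 gave 1 member, and leaving out 1 heart gave 293 to 1727 genes and 0 to 3 members. Between the control groups (5) DESeq2 gave 428 genes, no filter 65, a minimum of 1 CPM 11 and leaving out 1 heart 3 to 98, with 0 members in each. Limma at pseudocounts of 1 and 0.1 turned Nr2f2 in EIIa-tg to 0.0379 and 0.0465 and Hey2 to 0.0828 and 0.119. With 1 heart left out Nr2f2 ranged from -0.192 to 0.0513 and Hey2 from -0.147 to 0.0213 in EIIa-tg, Hey2 from -0.0243 to 0.196 in Myh6-tg, and between controls Myl4 from -0.104 to 0.388, Hey2 from -0.115 to 0.0756 and Myl2 from -0.268 to 0.0462. Limma on FPKM moved the median log2 change of all genes to 0.13 and 0.20 in EIIa-tg (from 0.02) and 0.27 and 0.40 in Myh6-tg (from 0.03). Higher genes were 77.9 and 78.7% of those passing in EIIa-tg (51.01% with edgeR, 77.5% with all 12 hearts), 77.3% in Myh6-tg with both pseudocounts (48.8%), and 68.1 and 63.2% for the difference (42.1%). Low counts left Bmp10 without any test, Sln with one for the difference between models only, and Myl7 with one in Myh6-tg only.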
